A study of Mus musculus with 78 samples.

Results

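COL4A1 and COL4A2 encode the α1 and α2 chains of type IV collagen, the network-forming collagen of basement membranes. They were taken by name as 2 of the 2755 genes on a targeted expression panel, and both are among the 2205 genes that the authors kept in their filtered table. Livers of male B6C3F1 mice had been fixed in formalin, embedded in paraffin and measured with TempO-Seq, in which pairs of probes are ligated on a transcript and counted by sequencing. The mice drank water with 3.5 g/L dichloroacetic acid (DCA), a by-product of water chlorination, from 4 weeks of age, or plain deionized water as controls. DCA was given for 10 weeks in S1, 32 weeks in S2, 57 weeks in S3 and all 78 weeks in Direct, and each S group returned to plain water afterwards. The number after a group's name is the study week of collection.

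Of 78 libraries, 1 per mouse, the authors kept 68 in their normalized table, and those are used here. S1-10, Control-32, S1-32, S2-32, Control-57, S1-57, Control-78 and S1-78 had 6 libraries each, S3-57 had 5, Control-10, S2-78 and S3-78 had 4 each, and Direct-78 had 3. Total counts ran from 541245 to 4285848 with a median of 2162678. By group, the lowest, median and highest totals were 1233543, 1930474 and 2206672 in Control-10, 721372, 1987260 and 2731045 in Control-32, 2223516, 2875740 and 4153377 in Control-57, and 2098777, 3505220 and 4285848 in Control-78. They were 1441966, 1965692 and 2290453 in S1-10, 2979117, 3285609 and 3914572 in S1-32, 1484484, 2426391 and 3049702 in S2-32, 919268, 2659690 and 3032863 in S1-57, and 1123317, 1584078 and 2030701 in S3-57. At week 78 they were 1665464, 2684484 and 3301147 in S1-78, 1187668, 1390515 and 2475996 in S2-78, 1154431, 1359656 and 1936370 in S3-78, and 541245, 671116 and 699825 in Direct-78. The totals of S1-32, S3-57, S3-78 and Direct-78 did not overlap those of their age-matched controls, so in these groups depth and treatment cannot be told apart.

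The α1 and α2 chains of type IV collagen wind into a common triple helix, and these trimers join through their ends into the sheet-like network that carries laminins, nidogens and perlecan. In liver a continuous basement membrane lies under bile ducts and larger vessels, while the sinusoids have only sparse type IV collagen in the space of Disse, made mainly by stellate and endothelial cells. In fibrosis this sinusoidal matrix becomes denser, alongside the fibrillar collagens of type I and type III.

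The genes lie head to head on mouse chromosome 8 (GRCm38, GENCODE vM21). Col4a1 (ENSMUSG00000031502) covers chr8:11198423-11312826 on the minus strand and Col4a2 (ENSMUSG00000031503) covers chr8:11312805-11449287 on the plus strand, so their 5′ ends overlap by 22 bases. Exon 1 of Col4a1 holds the 5′ untranslated region and the first coding bases, and exon 1 of Col4a2 is untranslated, its coding sequence starting in exon 2 at chr8:11313464-11313507. The windows from 250 bases before to 50 bases after each start, from RefSeq on the same build, were found for both genes and overlap by 78 bases. Their GC content was 74% for Col4a1 and 73.7% for Col4a2, against a median of 52.7% over 32851 promoter windows of that length.

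Because the levels of the pair were compared across libraries, short motifs were searched in these windows on both strands. The letters TATAAA were in neither window and are in 13.6% of all promoter windows. CCAAT occurred once in each window (37.4% of all windows hold it), GGGCGG once for Col4a1 and 3 times for Col4a2 (35.7%), and CAGAC, the letters of a SMAD box, only in the window of Col4a2 (49.6%). A GGGCGG lies in the 22 bases that both genes share, and was therefore counted in both windows. The stretches below show where the starts meet and the CCAAT letters on either side, 5′ to 3′ on the strand of the gene named, with the motif letters in capitals (ATTGG is CCAAT read on the other strand). A match describes letters only.
Col4a2, shared first bases, chr8:11312805-11312826, plus strand: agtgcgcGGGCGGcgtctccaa
Col4a1, chr8:11312954-11312983, minus strand: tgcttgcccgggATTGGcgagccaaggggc
Col4a2, chr8:11312761-11312790, plus strand: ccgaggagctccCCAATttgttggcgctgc

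**Figure D1:**
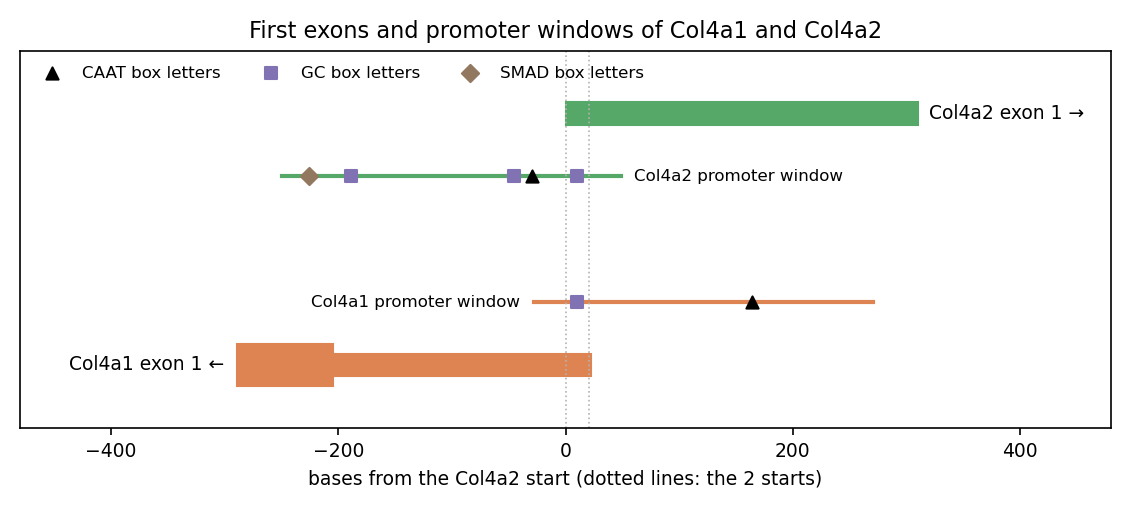
First exons and promoter windows of Col4a1 (orange) and Col4a2 (green), in bases from the start of Col4a2, with the dotted lines at the 2 starts. Thick bars are exons (the thicker part of Col4a1 exon 1 is coding), thin bars the windows, and symbols the motif letters found in each window; the starts overlap by 22 bases.

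Levels are given as CPM, the count scaled to library size with TMM factors. Probes differ in how well they bind and ligate, so levels are compared within a gene and not between COL4A1 and COL4A2. Over the 68 libraries COL4A1 had 0 to 482 raw counts (median 40, under 10 in 8 libraries) and COL4A2 had 14 to 1313 (median 192, under 10 in 0 libraries). The reads carry no molecular identifiers, so limits from counts cover counting error only. The library with a COL4A1 count of 0, Direct-78 mouse 65, allows up to 3 counts, which is 4.05 CPM. These are bulk sections, in which fewer cells of a type and less RNA per cell cannot be told apart.

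By group median, COL4A1 was ordered S2-78 (47.2 CPM), S2-32 (38.8), S1-78 (34.4), S1-10 (24.96), Control-10 (20.5), S1-32 (19.2), S3-57 (17.1), S1-57 (14.8), Control-32 (13.7), Control-78 (10.2), Direct-78 (9.88), S3-78 (9.19) and Control-57 (7.00). The ranges of every pair of neighbours in that order overlap. COL4A2 was ordered S1-78 (185.0 CPM), S2-78 (164.9), S2-32 (162.4), Control-10 (151.9), S1-10 (101.5), S1-32 (94.2), S1-57 (75.2), S3-78 (69.03), Control-78 (63.2), Control-57 (59.1), Control-32 (53.5), S3-57 (50.4) and Direct-78 (33.8). Of the neighbours in the COL4A2 order only S3-57 and Direct-78, at its end, have ranges that do not overlap. The same 3 treated groups, S1-78, S2-78 and S2-32, have the highest medians of both genes, and Control-10 is the control group with the highest median of both.

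**Figure D2:**
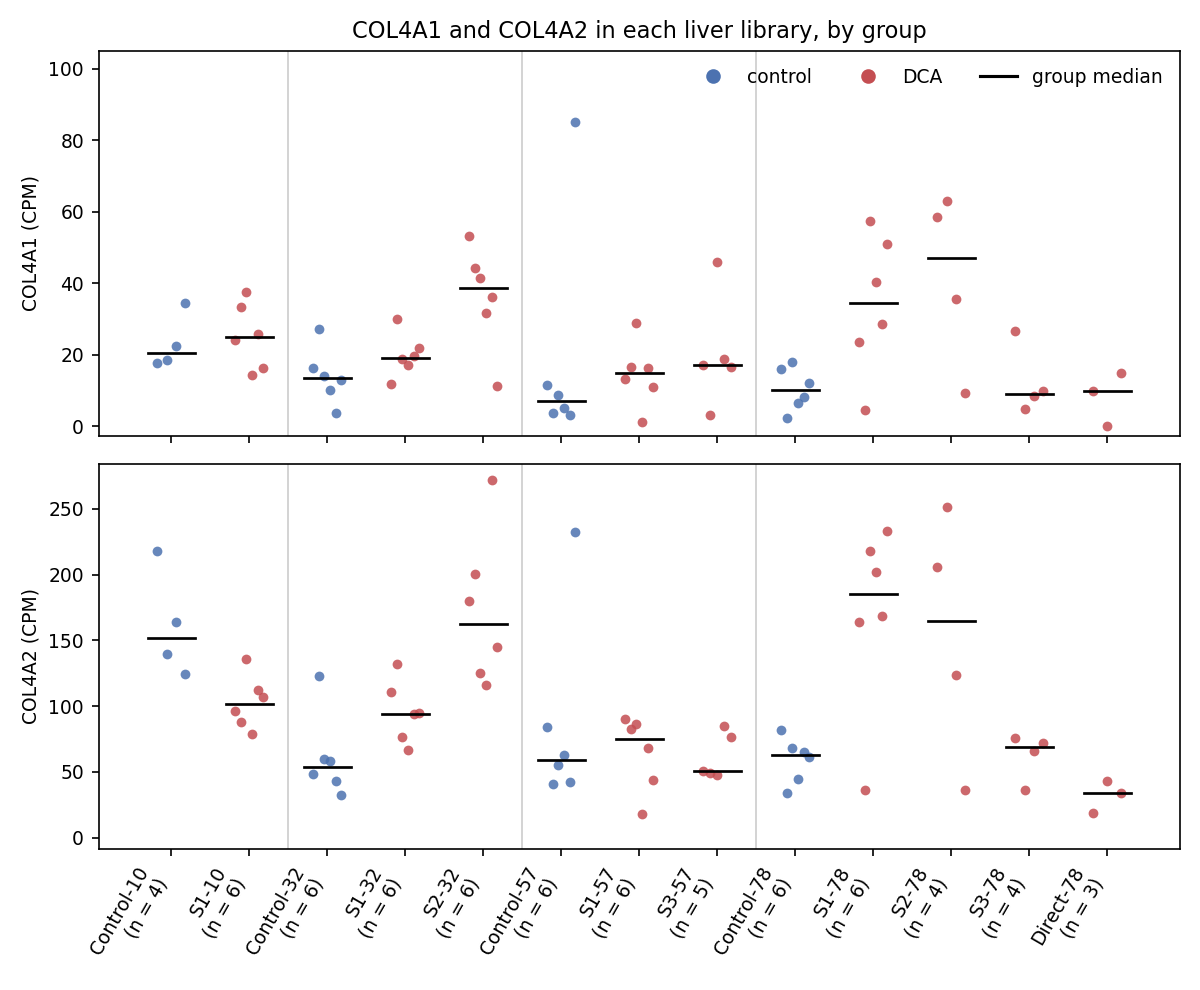
COL4A1 (top) and COL4A2 (bottom) in CPM in each of the 68 libraries by group, with controls in blue, DCA groups in red and the group median as a bar. S1-78, S2-78 and S2-32 hold the highest medians, each with 1 or more libraries at the control level for COL4A1, and a single Control-57 library reaches 85.2 and 232.1 CPM.

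S1-78 against Control-78 asks whether a change was present 68 weeks after a 10-week exposure. COL4A2 had 34.2, 63.2 and 81.7 CPM (lowest, median and highest of 6) in Control-78 and 36.3, 185.0 and 233.3 CPM in S1-78. The groups overlap through S1-78 mouse 32, at 36.3 CPM, and 5 of 6 S1-78 libraries lie above every control. COL4A2 was higher by 1.52 on the log2 scale (SE 0.38, edgeR adjusted p = 0.0180), which passes the threshold of an adjusted p of 0.05 and a fold change of 1.5, in a comparison where 1.81% of the 2205 genes were called. The adjusted p was 0.0640 without S1-78 mouse 36 (log2 change 1.41) and 0.0546 without Control-78 mouse 86 (1.41), 0.134 with all 78 libraries, 0.114 in a fit of the compared groups alone and 0.0767 with limma.

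COL4A1 ran from 2.50 through 10.2 to 18.1 CPM in Control-78 and from 4.70 through 34.4 to 57.3 CPM in S1-78. Again 5 of 6 treated libraries lie above every control and mouse 32 lies among them. The difference of 1.66 (SE 0.62, edgeR adjusted p = 0.164) did not pass, so COL4A1 differed here by a size near that of COL4A2 with a larger error.

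S2-32 against Control-32 compares livers at the end of 32 weeks of DCA with water. COL4A2 had 32.8, 53.5 and 123.3 CPM in Control-32 and 115.9, 162.4 and 271.7 CPM in S2-32 (lowest, median and highest of 6). Control-32 mouse 74, at 123.3 CPM, is above the lowest S2-32 library, and the other 5 controls are at or under 59.6 CPM. COL4A2 was higher by 1.498 (SE 0.38, edgeR adjusted p = 0.00927), with 5 of 6 treated libraries above every control, where 10.7% of genes were called. The call was kept in each of the 12 fits without 1 of these libraries and was lost with all 78 libraries (adjusted p = 0.0642).

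COL4A1 had 3.84, 13.7 and 27.3 CPM in Control-32 and 11.3, 38.8 and 53.3 CPM in S2-32. S2-32 mouse 42 lies among the controls and 5 of 6 S2-32 libraries lie above them all. The difference was 1.36 (SE 0.63, edgeR adjusted p = 0.146) and did not pass.

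S2-78 holds mice given DCA for 32 weeks and water for 46. Their COL4A2 values were 205.9, 251.6, 123.8 and 36.2 CPM (mice 43, 44, 45 and 47), and their COL4A1 values 58.6, 63.1, 35.7 and 9.48 CPM. For both genes mice 43, 44 and 45 lie above every Control-78 library and mouse 47 lies within the controls. COL4A2 differed by 1.38 (SE 0.41, edgeR adjusted p = 0.0610, 3 of 4 libraries above all controls) and COL4A1 by 1.95 (SE 0.67, adjusted p = 0.120), where 1.63% of genes were called. Neither passed. Without mouse 47 the COL4A2 difference was 1.71 with an adjusted p of 0.0126, and COL4A2 passed with RLE factors (0.0321), upper-quartile factors (0.0314), total count as a covariate (0.0214), DESeq2 (0.0149) and without the libraries with pancreas markers (0.0199). COL4A1 passed with the covariate (2.78, adjusted p = 0.0476) and with DESeq2 (2.15, 0.0376).

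Mouse 47 also had the lowest summed level of the other collagens in S2-78 (170.6 CPM, against 391.6 to 1166 in the other 3) and 15391 CPM of exocrine pancreas markers. Mouse 32 had the lowest sum of other collagens in S1-78 (151.7 CPM, against 312.6 to 1880) and of endothelial markers (297.4 CPM, against 474.0 to 699.0). The part of tissue content in the values of these libraries was not tested.

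S1-10, collected at the end of 10 weeks of DCA, is set against Control-10. COL4A2 was 217.7, 139.6, 164.3 and 124.5 CPM in Control-10 (mice 68, 69, 71 and 72) and 78.7, 101.5 and 135.6 CPM in S1-10 (lowest, median and highest of 6). All but 1 of the S1-10 libraries lie under the lowest kept control. The left-out Control-10 mice 67 and 70 had 83.2 and 110.7 CPM in a scaling over all 78 libraries. COL4A2 differed by -0.65 (SE 0.41, edgeR adjusted p = 0.372) and was not called, where 5.49% of genes were. COL4A1 was 17.7, 18.5, 22.4 and 34.5 CPM in Control-10 and 14.3, 24.96 and 37.5 CPM in S1-10, with both groups spread over the same range (0.11, SE 0.68, adjusted p = 0.943, 4 of 6 libraries above the control median).

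The change of COL4A2 in S1-78 was larger than that in S1-10 by 2.17 on the log2 scale (SE 0.56, edgeR adjusted p = 0.0147, where 4.22% of genes were called). This interaction uses Control-10 and Control-78 together, with 5 of 6 S1-78 libraries above their controls and 6 of 6 S1-10 libraries under the median of theirs. It was lost without Control-10 mouse 68 (2.00, adjusted p = 0.0994), with all 78 libraries (1.95, 0.0600) and with limma (2.06, 0.0501). That mouse has the highest COL4A2 of Control-10, at 217.7 CPM, and 16729 CPM of hepatocyte markers against 98866 to 102701 in the other 3. For COL4A1 the same difference was 1.55 (SE 0.91, adjusted p = 0.362) and did not pass. The change in S2-78 minus that in S2-32 was 0.59 for COL4A1 (SE 0.91, adjusted p = 0.730) and -0.12 for COL4A2 (SE 0.56, adjusted p = 0.930), where 0.499% of genes were called.

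The control groups themselves differed with age. Every kept library of Control-78 (34.2 to 81.7 CPM of COL4A2) and of Control-32 (32.8 to 123.3 CPM) lies under the lowest kept Control-10 library, at 124.5 CPM. This separation depends on the libraries kept. In a scaling over all 78 libraries the left-out Control-10 mice 67 and 70 had 83.2 and 110.7 CPM, and the highest kept Control-78 library had 83.3 CPM. Against Control-10, which all 3 comparisons share, COL4A2 fell by 1.44 in Control-78 (SE 0.41, edgeR adjusted p = 0.0315, lower in 6 of 6 libraries, 3.95% of genes called). The call was lost without Control-10 mouse 68 (-1.27, adjusted p = 0.109) or mouse 71 (-1.44, 0.0628) and without Control-78 mouse 86 (-1.36, 0.0539), mouse 88 (-1.40, 0.0538) or mouse 90 (-1.45, 0.0507). It was also above 0.05 with all genes of at least 1 count (-1.41, 0.0512) and with all 78 libraries (-1.21, 0.131). Endothelial markers, summed in each library, were lower too, at 558.1 to 644.7 CPM in Control-10 and 312.5 to 378.7 CPM in Control-78. Their median log2 change was -0.84, and edgeR called 0 of 10 and DESeq2 1. Sums of stellate markers overlapped (671.9 to 1240 and 834.6 to 2243 CPM). The part of cell content in the fall of COL4A2 was not tested.

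Control-32 differed by -1.40 in COL4A2 (SE 0.41, edgeR adjusted p = 0.0647, lower in 6 of 6 libraries, 1.59% of genes called). It missed the threshold with all libraries of the fit and passed without mouse 74 (-1.74, adjusted p = 0.00993), with DESeq2 (0.0312), limma (0.0237) and the covariate (0.0346). Control-57 had 40.7, 59.1 and 232.1 CPM of COL4A2 and 3.34, 7.00 and 85.2 CPM of COL4A1, the highest of both in mouse 84. COL4A2 differed by -0.90 (SE 0.41, adjusted p = 0.248, 5 of 6 libraries under all of Control-10, 3.45% of genes called), and without mouse 84 by -1.51 (adjusted p = 0.0218). COL4A1 differed by -0.72 in Control-32 (SE 0.68, adjusted p = 0.612), -0.22 in Control-57 (SE 0.68, 0.902) and -1.11 in Control-78 (SE 0.67, 0.422), lower than the Control-10 median in 5, 5 and 6 of 6 libraries.

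The S1 livers at the weeks between showed no called difference in either gene. In S1-32 COL4A2 had 66.5, 94.2 and 132.4 CPM, all above the Control-32 median of 53.5 CPM, and COL4A1 had 11.9, 19.2 and 30.1 CPM. COL4A2 differed by 0.65 (SE 0.38, edgeR adjusted p = 0.183) and COL4A1 by 0.49 (SE 0.62, 0.562), where 29.1% of genes were called. Without Control-32 mouse 74, the control that lies within S1-32, COL4A2 passed (0.98, adjusted p = 0.0393).

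In S1-57 COL4A2 had 17.9, 75.2 and 90.1 CPM and COL4A1 had 1.28, 14.8 and 28.8 CPM. The lowest value of both is mouse 28, with 919268 total counts, and 5 of 6 COL4A1 values lie above the control median although the fitted difference is negative. That fit gave -0.42 for COL4A1 (SE 0.61, edgeR adjusted p = 0.842) and -0.41 for COL4A2 (SE 0.37, 0.704), where 1.59% of genes were called. Without Control-57 mouse 84 the differences were 1.17 and 0.17.

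In S3-57, at the end of 57 weeks of DCA, COL4A2 was 50.4, 49.1, 47.4, 85.2 and 76.8 CPM (mice 49, 50, 51, 53 and 54) and COL4A1 was 17.1, 3.27, 46.0, 18.9 and 16.5 CPM. The COL4A2 values all lie within the range of Control-57, and mouse 51 is the highest in COL4A1 and the lowest in COL4A2. The differences were -0.48 (SE 0.40, edgeR adjusted p = 0.577) and 0.02 (SE 0.64, 0.996) for COL4A2 and COL4A1, where 6.39% of genes were called. Without Control-57 mouse 84 they were 0.09 and 1.60.

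In S3-78, after 21 further weeks on water, COL4A2 was 76.1, 36.3, 65.7 and 72.3 CPM (mice 55, 56, 59 and 60) and COL4A1 was 26.6, 4.79, 8.48 and 9.90 CPM. All COL4A2 values lie within the controls, and COL4A1 of mouse 55 lies above them. The differences were 0.08 (SE 0.42, edgeR adjusted p = 0.932) and 0.20 (SE 0.69, 0.874), where 13.3% of genes were called. COL4A1 turned to -0.49 without mouse 55.

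Direct-78 mice had DCA for the whole 78 weeks. Their COL4A2 was 18.8, 43.2 and 33.8 CPM (mice 64, 65 and 66) and their COL4A1 9.88, 0 and 14.9 CPM, from 19, 32 and 25 and from 10, 0 and 11 raw counts. For COL4A2, 2 of 3 values lie under every Control-78 library. The differences were -0.90 (SE 0.49, edgeR adjusted p = 0.166) and -0.38 (SE 0.81, 0.752), where 24.4% of genes were called. With total count as a covariate they turned, to 0.22 and 1.29. The median log2 change of all genes in Direct-78 against Control-78 was -0.33.

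Groups collected at week 78 after unequal exposure were also set against Direct-78, which those 3 comparisons share. Total counts of Direct-78 lie under all those of S1-78, S2-78 and S3-78, so depth and exposure cannot be told apart here. The median log2 change of all genes was 0.36 in S1-78, 0.31 in S2-78 and 0.27 in S3-78. COL4A2 was higher in S1-78 by 2.42 (SE 0.53, edgeR adjusted p = 0.00180, 5 of 6 libraries above all of Direct-78, 24.5% of genes called) and in S2-78 by 2.28 (SE 0.55, 0.00830, 3 of 4 libraries, 10.3% called). In S3-78 it differed by 0.98 (SE 0.52, adjusted p = 0.279, 3 of 4 libraries above all of Direct-78, 5.03% called). The call in S1-78 was lost with the covariate (1.49, adjusted p = 0.309) and with the compared groups alone (2.42, 0.0582). The call in S2-78 was lost with the covariate (1.69, 0.135), with the compared groups alone (2.18, 0.530), with all 78 libraries (1.22, 0.167) and without Direct-78 mouse 64 (2.00, 0.0568).

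COL4A1 differed from Direct-78 by 2.04 in S1-78 (SE 0.86, edgeR adjusted p = 0.0701, 5 of 6 libraries above), 2.33 in S2-78 (SE 0.91, 0.0839, 3 of 4) and 0.58 in S3-78 (SE 0.87, 0.784, 1 of 4). None passed. S1-78 passed without mouse 32 (2.21, adjusted p = 0.0394) and S2-78 without mouse 47 (2.61, 0.0357), both passed with limma (2.17, 0.0264 and 2.52, 0.0437), and S2-78 passed without the libraries with pancreas markers (2.65, 0.0384). Over all 17 comparisons edgeR called COL4A2 in 6 and COL4A1 in 0, with an unadjusted p under 0.05 for COL4A1 in 5. The share of all genes called in these comparisons ran from 0.499% to 29.1%. Several of them share a group, such as S1-78, Control-78 or Direct-78, so the calls are not independent. DESeq2 called COL4A1 in 1 and limma in 2.

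**Figure D3:**
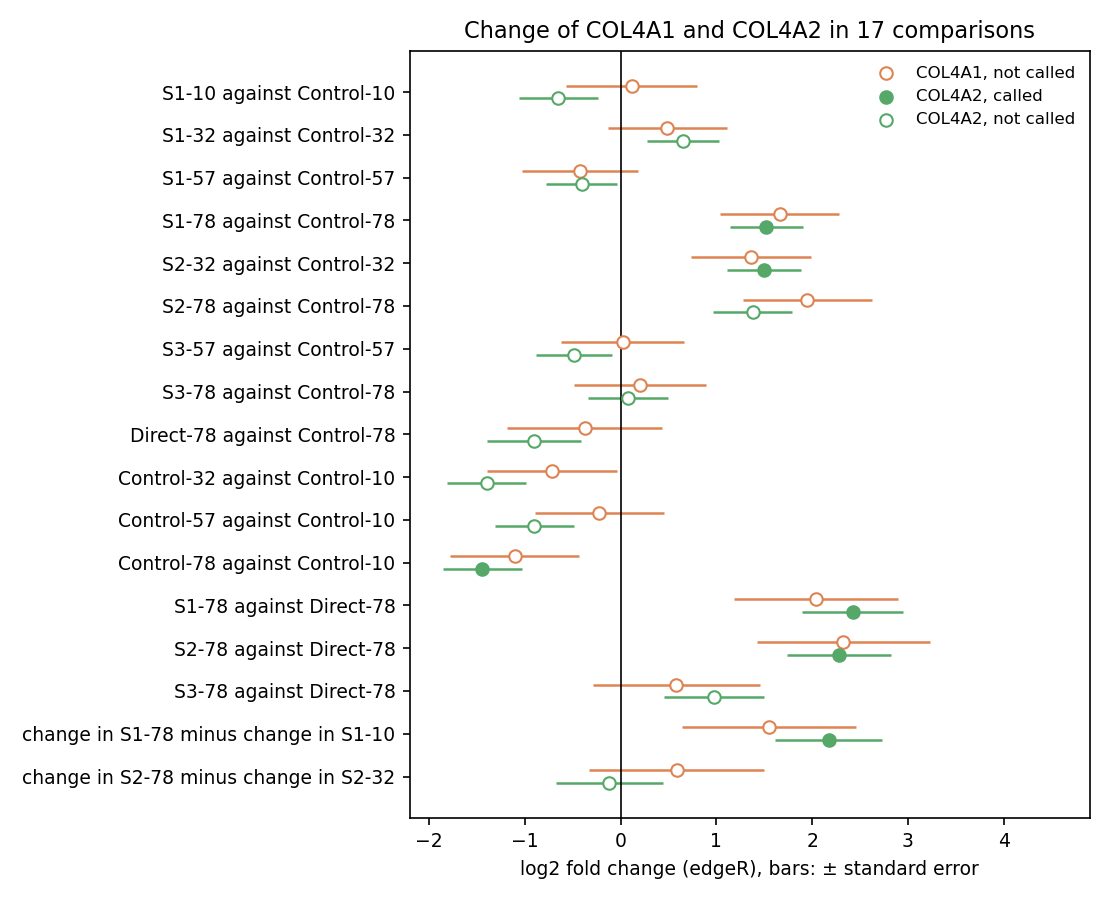
Log2 fold changes of COL4A1 (orange) and COL4A2 (green) in the 17 edgeR comparisons, with bars of 1 standard error and filled points where the call passed. COL4A2 has 6 filled points and COL4A1 none; the bars of COL4A1 are longer.

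Since the chains are built into the same trimer, their ratio was compared within each library. The log2 ratio of COL4A2 to COL4A1 was 2.54 ± 0.53 (SD, n = 6) in Control-78, 2.40 ± 0.33 (n = 6) in S1-78 and 1.85 ± 0.09 (n = 4) in S2-78. In S1-78 the difference was -0.14 (exact permutation p = 0.610, 2-sided, adjusted over 9 comparisons 0.865). In S2-78 it was -0.69 (exact permutation p = 0.0286, adjusted 0.257), and in S1-10 -0.72 (exact permutation p = 0.0810, adjusted 0.364). In S2-32 it was 0.20 (exact permutation p = 0.647, adjusted 0.865). With all 78 libraries the S2-78 value cannot be read, since the 2 added mice, 46 and 48, have no COL4A1 count and their ratios are set by the prior count.

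The ratio differed by 0.14 in S1-32 (exact permutation p = 0.673), -0.53 in S1-57 (0.193), -0.89 in S3-57 (0.177) and -0.09 in S3-78 (0.838). None passed after adjustment. In Direct-78 mouse 65 has no COL4A1 count, so its ratio is set by the prior count and no difference over all 3 libraries is given. Mice 64 and 66 had ratios of 0.87 and 1.14, and without mouse 65 the difference was -1.53.

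Across the 68 libraries log2 CPM of the pair (prior count of 2) correlated with a Pearson r of 0.762 and a Spearman rho of 0.806 (permutation p = 1.0e-05 for both, the smallest that 100000 permutations give). Without the 2 libraries farthest from the COL4A1 median, Direct-78 mouse 65 and S1-57 mouse 28, r was 0.766. After each group's mean was subtracted, r was 0.663 (permutation p = 1.0e-05) and rho 0.577 (permutation p = 2.0e-05), and r was 0.734 without Control-57 mouse 84 and Direct-78 mouse 65. Over the 60 libraries with at least 10 counts of both genes it was 0.665, and without Control-57 mouse 84 and S2-78 mouse 47 it dropped to 0.431 (permutation p = 0.00359). These are 2 relations of the same kind, and the p-values adjusted over both are 1.0e-05 for r and 2.0e-05 for rho. The files and labels name no sequencing batch, and with log2 total count regressed out r within groups was 0.629.

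**Figure D4:**
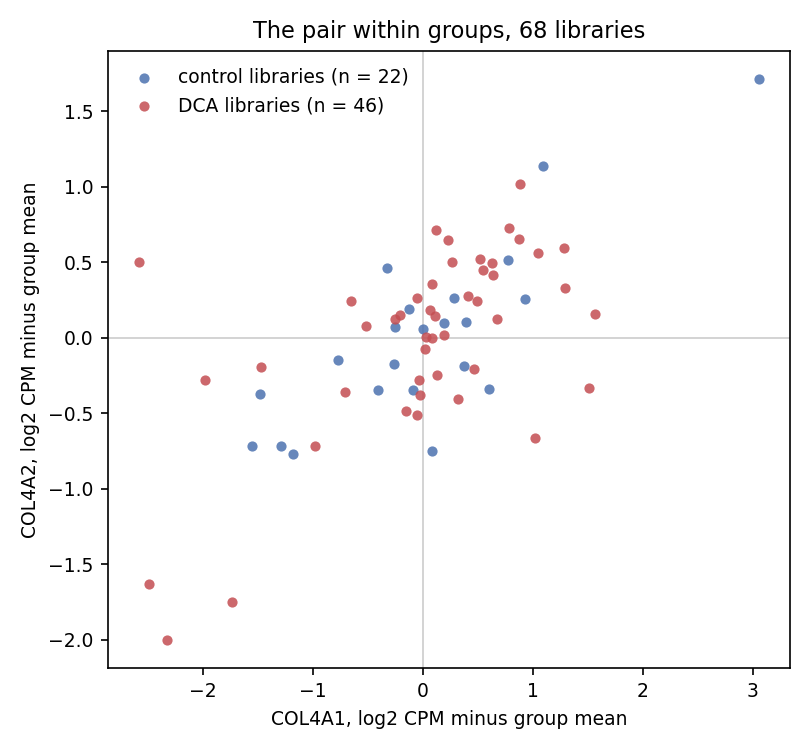
COL4A2 against COL4A1 as log2 CPM minus the group mean in 68 libraries, controls in blue (22) and DCA groups in red (46). The point at the upper right is Control-57 mouse 84, and Pearson's r is 0.663.

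The same measure over the other 2204 genes shows how common such likeness is. It had a median of 0.06 with COL4A1 and 0.10 with COL4A2, and exceeded 0.5 for 40 and 156 genes. COL4A2 ranked first among genes like COL4A1, before CCND2 (cyclin D2, r = 0.654), COL1A2 (the α2 chain of type I collagen, 0.635), VAV3 (0.628) and C1QA (a complement chain made by macrophages, 0.592). Those nearest to COL4A2 were H2-AA (an MHC class II chain, 0.741), ACOT9 (an acyl-CoA thioesterase, 0.696), MSN (moesin, 0.682), 6330417A16RIK (0.680) and STRBP (an RNA-binding protein, 0.674), with COL4A1 in rank 7. These are descriptions over 68 libraries that differ in depth and in their marker sums.

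Of the 2205 genes, 2114 were placed by symbol, and 21 pairs of them start within 1000 bases of each other on opposite strands and point apart. COL4A1 and COL4A2 had the highest within-group r of these pairs. The other 20 ran from -0.44 to 0.44 with a median of 0.11, the next being ATF5 with IL4I1 (0.440) and RRP8 with ILK (0.363). The pair was chosen as a head-to-head pair, and no test was made of its rank.

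**Figure D5:**
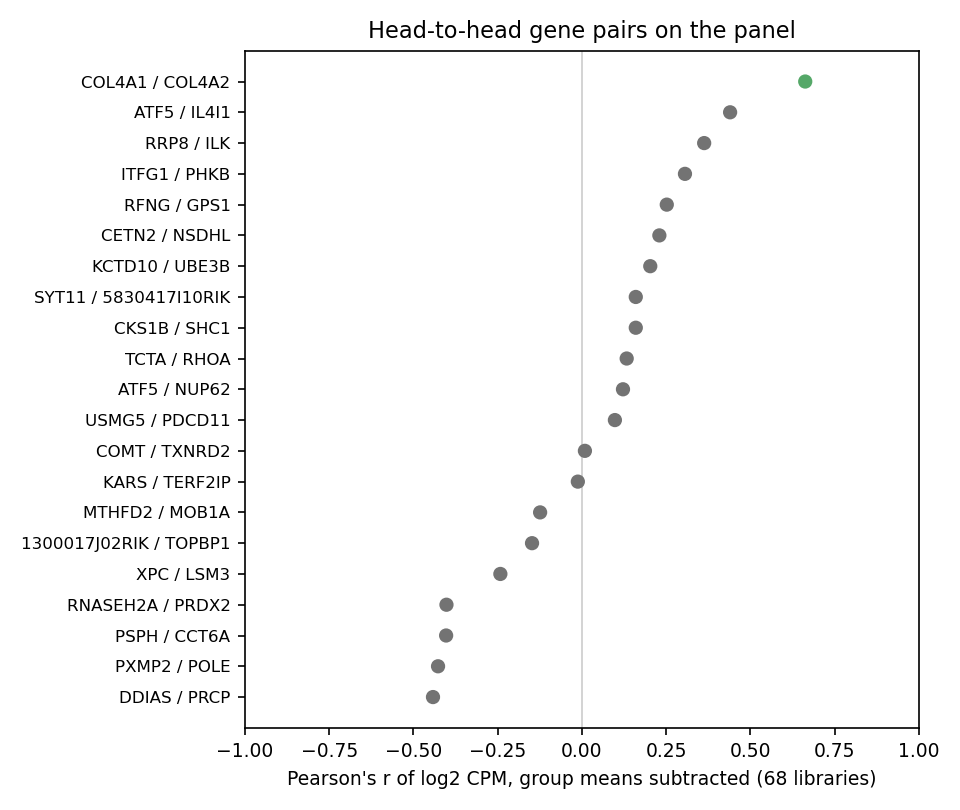
Pearson's r of log2 CPM with group means subtracted, over 68 libraries, for the 21 head-to-head gene pairs on the panel. COL4A1 with COL4A2 (green) stands at 0.663 and the other 20 pairs (grey) at -0.442 to 0.440.

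Other components of the basement membrane are sparse on the panel, which holds LAMA2, LAMA3 and LAMB1 of the laminins and none of the other genes listed. In S1-78, S2-78 and S2-32 against their controls, edgeR called 0 of these 3, where 1.81%, 1.63% and 10.7% of all genes were called. An unadjusted p was under 0.05 for 0, 1 and 0, and DESeq2 called 0, 1 and 0 (LAMA3, lower in S2-78). LAMA3, the α3 chain of laminin, had 0.590, 8.40 and 26.99 CPM (lowest, median and highest of 4) in Control-10 and 55.7, 65.3 and 73.3 CPM in S1-10 (n = 6). The groups do not overlap, and it rose by 2.54 in S1-10 (SE 0.79, edgeR adjusted p = 0.0429). It fell by 2.72 in S3-78 (SE 0.80, edgeR adjusted p = 0.0163), and it was at 0 in all 3 Direct-78 libraries against 26.1 to 103.3 CPM in Control-78, which edgeR also called lower. The shares of all genes called in S1-10, S3-78 and Direct-78 were 5.49%, 13.3% and 24.4%. The change of LAMA3 in S1-78 minus that in S1-10 was -3.76 (SE 1.01, edgeR adjusted p = 0.0179, 4.22% of genes called). It uses Control-10 and Control-78, and LAMA3 was higher in Control-78 by 2.49 (SE 0.79, edgeR adjusted p = 0.0555). That difference between controls was called by DESeq2, by limma and without the libraries with pancreas markers. In S1-10, S3-78, Direct-78 and S1-78 minus S1-10, LAMA2 and LAMB1 were not called and had the opposite sign to LAMA3. The medians over the 3 genes were -0.84, 0.61, 1.26 and 1.45.

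Of 11 other collagens on the panel 9 were tested. COL1A1, the α1 chain of fibrillar type I collagen, had 9.97, 23.7 and 42.4 CPM in Control-78 and 63.8, 240.6 and 970.4 CPM in S1-78. All S1-78 libraries lie above every control, with mouse 32 lowest and mouse 36 highest. COL1A1 rose by 3.83 (SE 0.62, edgeR adjusted p = 1.2e-04), COL1A2 by 2.98 (SE 0.64, 0.00389) and COL3A1, which forms type III collagen, by 2.71 (SE 0.58, 0.00407). These 3 of 9 were called higher and 0 lower, with a median log2 change of 1.23 over the 9, beside 22 higher and 18 lower of 2205 genes with a median of 0.07. Without the libraries with pancreas markers the same 3 were called and the median over the 9 was 0.70, beside 11 higher and 12 lower of all genes.

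In S2-78 COL1A1 was 539.7, 380.9, 142.3 and 55.1 CPM (mice 43, 44, 45 and 47), again above every control and lowest in mouse 47. It rose by 3.50 (SE 0.64, edgeR adjusted p = 6.8e-04) and COL1A2 by 2.45 (SE 0.66, 0.0352), so 2 of 9 were called higher and 0 lower with a median of 1.13, beside 18 higher and 18 lower of all genes with a median of 0.06. With RLE factors that split of all genes was 31 higher and 12 lower, and 3 of 9 collagens were higher. In S2-32 COL1A1 (2.72, SE 0.59, adjusted p = 0.00335) and COL3A1 (1.95, SE 0.57, 0.0212) rose, 2 of 9 with a median of 0.75, beside 76 higher and 159 lower of all genes with a median of 0.05. With limma that balance was the other way, 270 higher and 119 lower with a median of 0.29, and 3 of 9 collagens were called higher.

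Between controls, where Control-78 is the later group and is also the reference of the S1-78 and S2-78 comparisons, these collagens were lower at the later age. COL1A1 was 101.5, 224.4, 203.9 and 190.8 CPM in Control-10 (mice 68, 69, 71 and 72), and all of Control-78 lies under it. It fell by 2.86 (SE 0.63, edgeR adjusted p = 0.00407), COL1A2 by 2.41 (SE 0.66, 0.0263) and COL3A1 by 2.05 (SE 0.61, 0.0377), with 0 of 9 collagens higher, 3 lower and a median of -1.30. Of all genes 52 were higher and 35 lower with a median of -0.06 (38 higher and 51 lower with RLE factors). In S1-10 COL1A1 fell by 2.05 (SE 0.62, adjusted p = 0.0338), 1 of 9 lower and 0 higher with a median of -0.99, beside 24 higher and 97 lower of all genes with a median of -0.03 (20 higher and 20 lower with a median of 0.07 in limma). With RLE or upper-quartile factors, or without the libraries with pancreas markers, each of these collagens kept its call. With limma COL1A1 lost its call in S1-10 (0 of 9 called), COL1A2 lost it in S2-78 and COL3A1 lost it in S1-78 and in Control-78 against Control-10.

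Likeness of the pair to other collagens within groups was uneven. COL4A2 had r of 0.640 with COL5A1, 0.615 with COL1A1, 0.532 with COL1A2 and 0.473 with COL3A1. COL4A1 had 0.635 with COL1A2, 0.495 with COL6A2, 0.445 with COL3A1 and 0.328 with COL1A1. COL12A1 was lowest for both, at 0.05 with COL4A1 and 0.04 with COL4A2.

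Genes that act on collagen were grouped as processing (8 tested), turnover (9), receptors and adhesion (7) and TGFB signalling (13). Their medians in S1-78 against Control-78 were 0.19, 0.24, 0.30 and 0.33. None of these 37 genes was called in edgeR there, where 1.81% of all genes were called, with 3 at an unadjusted p under 0.05 and 0 called by DESeq2 or limma. PPIB, a prolyl isomerase of collagen folding, was the most abundant of the processing genes, PLG (plasminogen) of turnover, LAMP1 of the receptor list and TGFBR2, a TGFB receptor, of the signalling genes. LAMP1 is a lysosomal membrane protein and no collagen receptor. Without it, a choice made after seeing the data, the medians of that list were 0.42 (S1-78), -0.07 (S2-78) and 0.54 (S2-32), and that of S1-10 turned from 0.14 to -0.12.

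In S2-78 the medians of these lists were 0.06, 0.14, -0.09 and -0.06, and 0 of 37 genes were called in edgeR (1.63% of all genes), 6 had an unadjusted p under 0.05, and DESeq2 called 1 and limma 0. In S2-32 the medians were 0.10, 0.12, 0.63 and 0.08. P4HB, a subunit of prolyl 4-hydroxylase, rose there by 1.18 (SE 0.35, edgeR adjusted p = 0.0203), and TGFBR2 fell by 1.39 (SE 0.47, 0.0465). They were the only 2 of 37 called in edgeR, where 10.7% of all genes were called, while DESeq2 called 5 and limma 8. TGFBR2 was not among the 8 of limma. P4HB was named after its value was seen, as were CD68, CELA2A, CLDN5, DDR1, ENG, TIMP1 and ZG16. The signs of the list medians depend on the setting. With RLE factors receptors and TGFB signalling turned to 0.10 and 0.14 in S2-78 and processing and turnover to -0.01 and -0.12 in S2-32, and in S1-78 processing turned to -0.01 without the libraries with pancreas markers.

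In S1-10 collagen turnover and receptors had 1 gene lower each, TIMP1, an inhibitor of metalloproteinases, and DDR1, a collagen receptor. TIMP1 fell by 3.12 (SE 0.99, edgeR adjusted p = 0.0460) and DDR1 by 3.57 (SE 0.92, 0.0170), with list medians of -1.74 and 0.14, where 5.49% of all genes were called. TIMP1 lost its call without the libraries with pancreas markers, and limma called 0 in both lists while DESeq2 called 5 of 9 turnover genes (1 higher and 4 lower) and DDR1. Between Control-78 and Control-10 PPIB rose by 1.39 (SE 0.33, edgeR adjusted p = 0.0101), 1 of the 8 processing genes, where 3.95% of all genes were called. It lost its call with upper-quartile factors.

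Markers of the cells that could carry the pair were summed in each library, and 6 genes stand in 2 of the lists. In each list the most abundant gene is that with the highest mean CPM over the 68 libraries. The 10 endothelial markers, with AQP1 the most abundant, summed to 312.5, 360.5 and 378.7 CPM in Control-78, 297.4, 554.6 and 699.0 CPM in S1-78, and 496.8, 498.8, 466.2 and 376.6 CPM in S2-78. All but mouse 32 of S1-78 and mouse 47 of S2-78 lie above every control, and so do all 4 libraries of S3-78 (408.9 to 477.5 CPM), where neither gene of the pair was called. GIMAP4, a GTPase that lymphocytes also express, rose in S1-78 by 1.34 (SE 0.33, edgeR adjusted p = 0.0152) and in S2-78 by 1.37 (SE 0.36, 0.0259), the only 1 of 10 called in either. The list medians were 0.69 and 0.54, beside 0.07 and 0.06 over all genes, of which 1.81% and 1.63% were called. GIMAP4 also rose in S3-78 by 1.63 (SE 0.36, edgeR adjusted p = 0.00182), where the list median was -0.50, and in S1-32 by 0.94 (SE 0.33, 0.0279), and the pair was called in neither. The part of endothelial content in the levels of the pair was not tested. In S2-32 the sum was 398.1, 532.5 and 578.8 CPM against 321.0, 423.9 and 730.2 CPM in Control-32, the median was 0.26 and 0 of 10 were called in edgeR, with 1 at an unadjusted p under 0.05 and 0 called by DESeq2 and 1 by limma.

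The 13 stellate markers, with ECM1 the most abundant, summed to 834.6, 1094 and 2243 CPM in Control-78, 607.2, 1177 and 2280 CPM in S1-78 and 1745, 1989, 790.1 and 978.0 CPM in S2-78. The groups overlap widely. None was called by edgeR in S1-78, S2-78 or S2-32 (medians 0.43, 0.32 and 0.64), where 1.81%, 1.63% and 10.7% of all genes were called. An unadjusted p was under 0.05 for 4, 3 and 2, and DESeq2 called 1, 0 and 2. In S2-32 the sum was 989.6, 1190 and 2113 CPM against 1003, 1700 and 2262 CPM in Control-32, lower by median. ECM1 fell there by 1.115 (SE 0.39, edgeR adjusted p = 0.0516). It was called lower with RLE factors, upper-quartile factors and DESeq2. With a mean of 507.0 CPM over the 68 libraries, ECM1 weighs most in these sums. Its group median was 1169 CPM in Control-32 and 447.1 CPM in S2-32. How far the sums reflect stellate cells was not tested. No marker of these lists was at 0 across all the libraries. The 4 smooth muscle markers, led by MYLK, had medians of 0.85, -0.21 and 0.64 in those comparisons, and the 6 cholangiocyte markers, led by AQP1, of 1.00, 0.04 and -0.06. Of these 10 genes edgeR called 0 in each, beside 1.81%, 1.63% and 10.7% of all genes. An unadjusted p was under 0.05 for 2, 0 and 3, and DESeq2 called 0, 0 and 1.

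Of 8 macrophage markers, led by TYROBP, edgeR called 0 in S1-78 and S2-78, where 1.81% and 1.63% of all genes were called. The medians were 0.60 and 0.78, with 1 at an unadjusted p under 0.05 in each and 0 called by DESeq2. In S2-32 (median 0.30) CD68 rose by 2.06 (SE 0.65, edgeR adjusted p = 0.0301) and TYROBP fell by 2.58 (SE 0.65, 0.00890). They were the 2 of 8 called there, where 10.7% of all genes were called. Control-57 mouse 84, the control highest in both members of the pair, had 6554 CPM of macrophage markers, where mouse 82 had 16886 and the other 4 had 1572 to 3582. It also had the lowest hepatocyte sum of its group (45929 CPM) and the highest COL1A1 (193.6 CPM).

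Hepatocyte markers, led by SERPINA3K, summed to 16729 to 102701 CPM in Control-10 and to 132036 to 177007 CPM in S1-10, all above it. The only 1 of 10 that edgeR called in S1-10 went down, where 5.49% of all genes were called. This was CYP3A11, a cytochrome P450 of drug metabolism, which fell by 1.83 (SE 0.49, edgeR adjusted p = 0.0206). The list median was 0.54, and limma called 1 other marker, which was higher. In Control-78 the sum was 88532 to 165376 CPM, and all of S3-78 (45277 to 64298) and Direct-78 (27518 to 49539) lie under it. So do S1-78 mice 31 and 32 (71336 and 63329) and S2-78 mice 45 and 47 (43184 and 62097), and the S2-78 median was 75343 CPM against 124493 in Control-78. Of 10, edgeR called 0 in S1-78 and S2-32 (medians 0.15 and 0.83), where 1.81% and 10.7% of all genes were called. An unadjusted p was under 0.05 for 0 and 4, DESeq2 called 0 and 1, and limma 0 and 2. In S2-78 CYP3A11 rose by 1.94 (SE 0.49, edgeR adjusted p = 0.0191), 1 of 10 with a median of -0.40, where 1.63% of all genes were called. That call was lost with limma, which called 0 of 10. The part of cell content in the levels of the pair was not tested.

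Exocrine pancreas markers exceeded 1000 CPM in sum in 4 libraries, S1-10 mouse 17 (5391 CPM), S1-32 mouse 19 (2583), S1-78 mouse 36 (26315) and S2-78 mouse 47 (15391). In the other libraries the sum ran from 1.47 CPM (Control-32 mouse 73) to 524.7 CPM (Direct-78 mouse 64). CEL had the highest mean over the 68 libraries (151.2 CPM) and reached 6615 CPM in S2-78. The highest CPA1 value was above the highest CEL value in S1-10 (1190 against 459.5 CPM), S1-32 (745.3 against 312.8) and S1-78 (4368 against 2587). In S1-78 edgeR called 5 of 9 pancreas markers higher (CELA3B, CTRB1, CPA1, CELA2A and ZG16, median 7.21), where 1.81% of all genes were called. In S2-78 it called 3 of 9 higher (CELA3B, CTRB1 and CEL, median 5.80), where 1.63% were called. DESeq2 called 1 of 9 in each, ZG16, and limma 0. In S2-32 edgeR called 0 of 9 (median -2.17, 1 at an unadjusted p under 0.05), where 10.7% of all genes were called. Without those 4 libraries edgeR called 0 of 9 in S1-78 and in S2-78, while COL4A2 was higher in S1-78 by 1.41 (SE 0.38, edgeR adjusted p = 0.0420). Without mouse 36 alone that call was lost (1.41, SE 0.39, edgeR adjusted p = 0.0640).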

How the data were processed

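TempO-Seq counts of liver sections were analysed in the 68 of 78 libraries that are in the authors' normalized table, 1 per mouse. The deposited count table holds raw counts per probed gene, and the submitters' notes name Bowtie, mm10 and Partek 10.0.22.0524. The deposited normalized table holds a signal that the authors made as the count plus 1 over a factor per library, and the filtered table holds the same signal for 2205 genes. No column belonged to no sample (0 of them).

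The counts of those genes were fitted by edgeR 4.0.16 under R 4.3.3, as 13 groups in a quasi-likelihood model after TMM scaling, with 2-sided tests and Benjamini-Hochberg adjustment in each comparison. To be called, a gene had to change by over 1.5-fold with an adjusted p no higher than 0.05. Total counts and the groups are given with the results. DESeq2 1.42.0, limma 3.58.1, RLE and upper-quartile factors, all 2755 genes, the 2697 genes of filterByExpr, all 78 libraries, the compared groups alone, log2 total count as a covariate, the adjusted p alone, and each library left out in turn were alternatives. Leaving out 4 libraries with over 1000 CPM of pancreas markers was chosen after seeing the data. Ratios were tested with exact permutations and correlations with 100000 permutations (within groups where group means were subtracted), in Python 3.11.15 with scipy 1.17.1.

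The members and the 13 gene lists were chosen with earlier results of these data known. Genes named are the pair, the 5 genes nearest to each, COL1A1, COL1A2 and COL3A1, and from each list up to 4 of the genes called with the largest change in S1-78 or S2-78 against Control-78, otherwise the most abundant. The steps were tested on simulated data. Replicates were checked for copies, and over 151 pairs the lowest chi-square per degree of freedom was 21.4.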

Additional observations from a re-analysis of the deposited data

Results flagged for a closer look

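For each gene, the highest and lowest library of each group of 4 to 6 was compared with the others by Dixon's gap. Of 24 sets of a group and a gene 4 were past the 95% limit, both genes of Control-57 mouse 84 among them. That limit assumes normally distributed values, and the genes of the pair correlate, so the count is not set against a rate by chance. COL4A2 of Control-32 mouse 74 (123.3 CPM) lay far above the other 5, as did COL4A1 (85.2 CPM) and COL4A2 (232.1 CPM) of Control-57 mouse 84. COL4A2 of S1-78 mouse 32 (36.3 CPM) lay far below the other 5.

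The change of COL4A2 differed between S1-78 and S1-10 by 2.17 on the log2 scale, in a test of the difference itself.

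Among the 10 libraries that the authors left out, 2 at week 78 had COL4A1 above the highest Control-78 library (18.4 CPM in a scaling over all 78 libraries) beyond counting error. S3-78 mouse 58 had 115.5 CPM, from 45 counts of 518956, and Direct-78 mouse 62 had 61.2 CPM, from 80 counts of 658155.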

How the results depend on the processing

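Values are log2 differences, and the cause of the changes was not tested unless the setting itself gives it (more libraries, fewer groups in the fit). Over the other settings 327 values of the pair (edgeR, DESeq2 and limma) kept their sign and their side of the threshold, 21 turned, 13 lost the call and 13 gained it. With a library left out 353 kept both, 22 turned, 9 lost the call and 6 gained it. All 12 alternative correlations kept theirs (r from 0.471 to 0.767, and 0.431 within groups with at least 10 counts once 2 libraries are left out). The filterByExpr genes and the adjusted p alone changed no call or sign of the pair.

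With RLE factors, COL4A1 in Direct-78 turned to 0.11 and COL4A2 in S2-78 minus S2-32 to 0.13, and COL4A2 in S2-78 was called (1.57). Upper-quartile factors gave 0.20, 0.15 and 1.51 for these and -0.013 for COL4A1 in S1-10. DESeq2 gave 0.11, 0.13 and 1.57, and called COL4A1 in S2-78 (2.15) and COL4A2 in Control-32 against Control-10 (-1.38).

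With all 78 libraries, COL4A2 lost its call in S1-78 (1.49), S2-32 (1.46), Control-78 against Control-10 (-1.21), S2-78 against Direct-78 (1.22) and S1-78 minus S1-10 (1.95). COL4A2 in S3-78 turned to -0.22, and COL4A1 turned in Direct-78 (0.97), S1-10 (-0.45) and S3-57 (-0.19). The ratios listed as turned in S2-78 (0.51) and Direct-78 (-0.69) hold libraries with no COL4A1 count, set by the prior count, and are not read. With all genes of at least 1 count, COL4A2 lost its call in Control-78 against Control-10 (-1.41) and turned in S3-78 (-0.014), and COL4A1 turned in S3-57 (-0.021).

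With log2 total count as a covariate, COL4A2 lost its call in S1-78 (1.49) and S2-78 (1.69) against Direct-78 and gained it in S2-78 (1.91) and in Control-32 against Control-10 (-1.44), and COL4A1 gained it in S2-78 (2.78). Values that turned were COL4A1 in Direct-78 (1.29), S1-32 (-0.21), S1-57 (0.034) and S3-78 against Direct-78 (-0.15), and COL4A2 in Direct-78 (0.22) and S2-78 minus S2-32 (0.51). With the compared groups alone, COL4A2 lost its call in S1-78 (1.52) and against Direct-78 in S1-78 (2.42) and S2-78 (2.18).

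With limma, COL4A2 lost its call in S1-78 (1.39) and S1-78 minus S1-10 (2.06) and gained it in Control-32 against Control-10 (-1.69). COL4A1 gained it against Direct-78 in S1-78 (2.17) and S2-78 (2.52) and turned in S1-57 (0.32). Without the 4 libraries with pancreas markers, added after seeing the data, COL4A2 in S2-78 (1.71) and COL4A1 in S2-78 against Direct-78 (2.65) were called, COL4A2 in S2-78 minus S2-32 turned (0.21) and so did the ratio in S1-32 (-0.042).

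Leaving out each library in turn gave ranges for COL4A2 of 1.41 to 1.73 in S1-78, 1.04 to 1.71 in S2-78, 0.44 to 0.98 in S1-32, -0.55 to 0.17 in S1-57, -0.63 to 0.089 in S3-57 and -0.035 to 0.34 in S3-78. Against Control-10 they were -1.74 to -1.22 in Control-32, -1.51 to -0.72 in Control-57 and -1.59 to -1.27 in Control-78. They were 1.94 to 2.57 in S2-78 against Direct-78, 2.00 to 2.43 in S1-78 minus S1-10 and -0.46 to 0.23 in S2-78 minus S2-32. For COL4A1 they were -0.065 to 0.37 in S1-10, -0.70 to 1.17 in S1-57, -0.51 to 1.60 in S3-57, -0.49 to 0.53 in S3-78, -1.005 to 0.40 in Direct-78 and -1.80 to 0.030 in Control-57 against Control-10. Against Direct-78 they were 1.26 to 2.66 in S1-78, 1.57 to 2.97 in S2-78 and -0.15 to 1.199 in S3-78. The ratio ran from -0.042 to 0.36 in S1-32, -0.27 to 0.033 in S1-78, -0.057 to 0.42 in S2-32 and -0.22 to 0.23 in S3-78. It ran from -1.03 to -0.46 in S1-10, -0.795 to -0.39 in S1-57, -0.82 to -0.52 in S2-78 and -1.32 to -0.43 in S3-57. In Direct-78 only the value without mouse 65 (-1.53) has COL4A1 counts in every library, and the others, up to 0.85, are not read.

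RLE and upper-quartile factors moved the median of all genes by up to 0.40 and 0.45, both in Direct-78 against Control-78. Counts of called genes moved by more than 1.5 times in every comparison under some setting, for S1-78 against Control-78 from 40 to between 0 and 85 and for S2-32 against Control-32 from 235 to between 68 and 393. No paired analysis was possible because each mouse is in 1 group. Depth limits COL4A1 most, with under 10 counts in 8 libraries and no more than 11 in Direct-78.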

Other observations

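COL4A2 in the same 2 left-out libraries was 53.9 CPM in S3-78 mouse 58 and 66.5 CPM in Direct-78 mouse 62, under the highest Control-78 library of 83.3 CPM. Left-out Direct-78 mouse 61 went the other way, with 103.6 CPM of COL4A2 (69 counts) and 27.02 CPM of COL4A1 (18 counts), above the highest Control-78 library in both, and the lower 95% limits of its counts (80.6 and 16.01 CPM) lie under it. Of the 10 left-out libraries, COL4A1 had no count in S2-78 mice 46 and 48 and S3-57 mouse 52, and COL4A2 had none in S3-78 mouse 57. The left-out Control-10 mice 67 and 70 had 52.9 and 61.5 CPM of COL4A1, above the highest kept Control-10 library (34.4 CPM on the same scale), and 83.2 and 110.7 CPM of COL4A2. Totals of the left-out libraries were 244409 to 658155.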
